A study of Oryza sativa with 12 samples.

Results

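The aleurone, the outermost cell layer of the rice endosperm, was compared with the starchy endosperm that it surrounds, using 6 of the 12 libraries of a study of developing rice (Oryza sativa) seed. The members were chosen by tissue label alone: 3 aleurone libraries and 3 endosperm libraries, called biological replicates in the design text. The aleurone group was tissue from field-grown plants that received no treatment, and the endosperm group was tissue from plants grown and handled in the same way. RNA of both was extracted with the PicoPure kit and made into libraries with the NEBNext Ultra kit, starting from 10 ng of total RNA. Not given in the sources used here are the cultivar, the seed stage, how the tissues were separated and whether both came from the same seeds. Raw read counts of 37878 genes were deposited, and 10580 of them passed the filter on low counts and were tested.

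Aleurone and starchy endosperm arise from the same fertilised central cell and then take different fates. Starchy endosperm cells fill with starch and storage protein and die as the grain matures, while aleurone cells stay alive, accumulate oil bodies, minerals bound to phytate and desiccation-protective proteins, and later secrete the enzymes that digest the starch when the grain germinates. The aleurone also lies in the path by which sucrose delivered to the seed coat reaches the starchy cells. Because these were bulk samples, fewer cells of a type and less RNA per cell cannot be told apart.

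Library totals ran from 5689112 to 16005961 counts in aleurone and from 6367350 to 24412371 in endosperm. Each library goes by its column header's number (aleurone 1, 2 and 3, endosperm 2, 3 and 4). Aleurone 2 and endosperm 3 were the shallowest of their tissues and lacked many transcripts that the others held. Aleurone 2 had no count for 3071 genes that had at least 50 counts in each of the other aleurone libraries, and endosperm 3 had none for 2285 genes on the same measure, against 295 to 599 genes for the other aleurone libraries and 314 to 455 for the other endosperm libraries. Within a tissue, Spearman correlations over the genes tested ran from 0.459 to 0.644 in aleurone and from 0.528 to 0.706 in endosperm. Between an aleurone and an endosperm library they ran from 0.320 to 0.454. Genes within a library are not independent replicates, and these correlations carry no test. The levels below are CPM, read counts relative to library size after correction by TMM factors, and each log2 fold change is aleurone over endosperm with its standard error.

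The summed aleurone markers and WAXY separated aleurone from endosperm. The sum of the aleurone markers did not separate aleurone from embryo or pericarp. The summed level of the 5 aleurone markers found of 9 listed (OLE18, LTP, LEA19, RAB16C and RAB16D) was lowest at 3631, with a median of 4086 and a maximum of 5953 counts per 1000000 of the library total, in aleurone, against 82.4, 227 and 264 in endosperm. Their median was also high in embryo, at 4303, and in pericarp, at 4927. Of the 5 markers LTP stood at 523 to 850 in aleurone, against 4.06 to 54.6 in embryo and 564 to 1362 in pericarp. RAB16D stood at 13.7 to 71.7 in aleurone, against 13.4 to 56.1 in embryo and 0 in every pericarp library. OLE18, LEA19 and RAB16C had ranges in aleurone that overlapped those of both tissues. For the starchy endosperm 1 marker was found by symbol, WAXY, at 922, 1880 and 2677 on the same scale in aleurone, against 18749, 29339 and 37209 in endosperm. In pericarp WAXY stood at 715 to 3059, a range that overlaps that of aleurone. Of the 8 embryo markers listed 6 were found, with a summed level of 0 to 31.6 in aleurone and 0 to 4.24 in endosperm. The same sum was 524 to 607 in the embryo libraries. OSH15, WOX4, SPL12 and CYCB2-1 were at 0 in every aleurone and endosperm library. OSH71 was not, at 15.6, 31.6 and 0 in aleurone 1, 2 and 3, against 22.2 to 58.1 in embryo and 0 in endosperm. The 3 green pericarp markers found, TROL, LTD and EGY2, were at 0 in the pericarp libraries as well as in these 6, so they say nothing about pericarp RNA here.

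A few genes took a larger share of the reads in endosperm than in aleurone, on average. The 10 most abundant genes of each library took 23.2%, 30.0% and 42.1% of the counts in aleurone 1, 2 and 3, against 53.9%, 43.0% and 48.2% in endosperm 2, 3 and 4. Every aleurone value was below every endosperm value, although aleurone 3 came within a percentage point of endosperm 3. The means were 31.8% ± 9.57 in aleurone and 48.3% ± 5.44 in endosperm (SD, n = 3 libraries each; exact two-sided permutation test, p = 0.1, the smallest that 3 against 3 allows). Of the 10 most abundant genes by mean level 7 were shared by the tissues, and of the 50 most abundant 23 were shared. The 10 genes that led in endosperm took 14.4%, 28.0% and 40.0% of the counts in aleurone 1, 2 and 3, against 53.9%, 42.7% and 48.2% in endosperm 2, 3 and 4. Their choice by endosperm level favours a higher share there. The 10 genes that led in aleurone took 21.3%, 29.5% and 41.5% in aleurone 1, 2 and 3, against 47.7%, 37.0% and 41.3% in endosperm 2, 3 and 4. For that set the tissues overlapped, with aleurone 3 above endosperm 3 and 4.

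Aleurone libraries held more detected genes on average, but not beyond the spread between libraries. Genes with at least 1 count numbered 13676, 8158 and 11599 in aleurone 1, 2 and 3, against 10048, 6780 and 10490 in endosperm 2, 3 and 4. The groups overlapped, since aleurone 2 lay below endosperm 2 and 4. The means were 11144 ± 2787 in aleurone and 9106 ± 2026 in endosperm (SD, n = 3; exact two-sided permutation test, p = 0.4). A count in all 3 libraries was found for 6310 (39.5%) of the 15970 genes seen in any aleurone library, and for 5021 (37.5%) of the 13392 genes seen in any endosperm library.

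**Figure D1:**
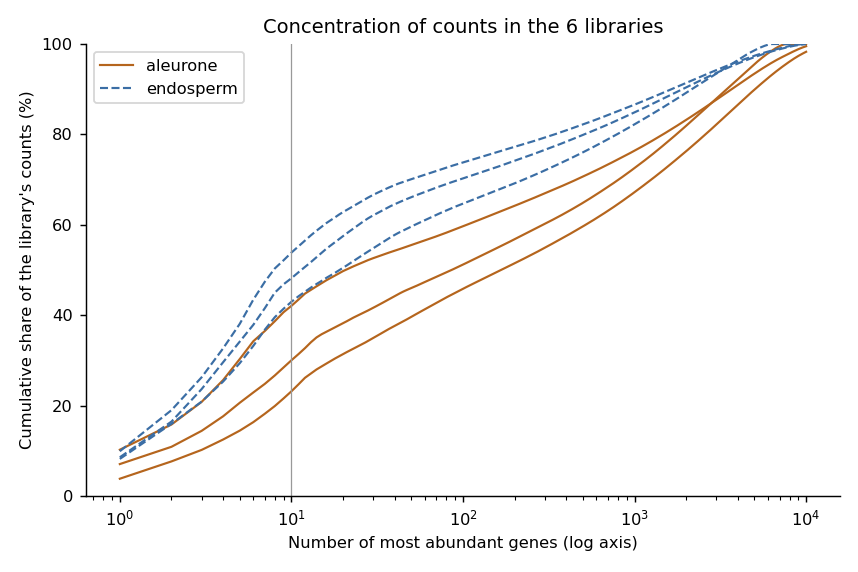
Cumulative share of a library's counts (y axis, percent) held by its most abundant genes (x axis, number of genes, log scale), 1 line per library, solid for aleurone and dashed for endosperm, with a vertical line at 10 genes. At that line the 3 aleurone libraries stand between 23.2% and 42.1% and the 3 endosperm libraries between 43.0% and 53.9%.

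Across the table, 82 of 10580 genes (0.775%) differed between the tissues by edgeR's quasi-likelihood test, called at a Benjamini-Hochberg adjusted p under 0.05 where the change was also at least 2-fold. Of these, 40 (0.378%) were higher and 42 (0.397%) lower in aleurone. None of the 82 had a symbol or a description in the deposited table, so the calls describe unnamed genes. Their adjusted p-values lay between 0.0401 and 0.0489, close under the threshold. The aleurone and endosperm libraries did not overlap at any of them, which selection by low p on the same libraries favours. Over all genes tested, 1530 (14.5%) were higher and 978 (9.24%) lower in aleurone without overlap. Without any adjustment 1162 genes (11.0%) had p below 0.05, 713 (6.74%) of them higher and 449 (4.24%) lower in aleurone. The common dispersion of 2.71 corresponds to a coefficient of variation of 1.65 between libraries of a tissue.

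The number of calls depended on the method and on single libraries. A fit of all 12 libraries, in which pericarp and embryo share the estimate of the spread, called 7 of 16347 genes (0.0428%), all higher in aleurone, and 6 of them were among the 82. On the same 6 libraries DESeq2's Wald test called 861 genes (8.14%) and limma voom 366 (3.46%). The count was 0 with the sequencing lane as a covariate, with 973 genes at an unadjusted p below 0.05 in that edgeR fit. It was also 0 without aleurone 2, without aleurone 3 or without endosperm 4, with 2218, 1093 and 1177 genes at an unadjusted p below 0.05, and it was 4 without aleurone 1 and 127 without endosperm 3.

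Of the 40 genes called higher in aleurone, 20 had no count in any endosperm library. The other 20 had log2 fold changes of 3.92 to 13.30, with a median of 5.78. Levels in aleurone ran from 59.3 to 13805 CPM over the 40 genes, with a median of 103 CPM. Together the 40 genes took 4.76%, 5.97% and 3.38% of the counts in aleurone 1, 2 and 3, against 0.107%, 0.142% and 0.0646% in endosperm 2, 3 and 4. They were called on these same libraries, so the direction of this difference follows from the choice of genes. The gene with the identifier BGIOSGA007855 (chromosome 2, 8696030 to 8697046, plus strand) had 106, 751 and 279 CPM in aleurone, against 0.0829, 0 and 0 CPM in endosperm. A single read was therefore counted for it over the endosperm libraries (log2 fold change 13.30 ± 1.46; edgeR quasi-likelihood test, Benjamini-Hochberg adjusted p = 0.0401). BGIOSGA019592 (chromosome 5, 15113505 to 15117036, plus strand) had 137, 75.7 and 106 CPM in aleurone, against 0.0829, 0 and 0 CPM in endosperm. It was again far from overlapping, and unlike BGIOSGA007855 it also passed in the fit of 12 libraries (edgeR quasi-likelihood test, Benjamini-Hochberg adjusted p = 0.0401 with 6 libraries and 0.0477 with 12, against 0.0943 with 12 for BGIOSGA007855). The coordinates are those of the deposited table, with a genome build not given in the sources here.

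Of the 42 genes called lower in aleurone, 9 had no count in any aleurone library. The other 33 had log2 fold changes of 3.00 to 11.67 in absolute size, with a median of 4.42. Levels in endosperm ran from 72.1 to 17020 CPM over the 42 genes, with a median of 483 CPM. Together the 42 genes took 0.367%, 0.528% and 0.549% of the counts in aleurone 1, 2 and 3, against 6.29%, 5.59% and 7.13% in endosperm 2, 3 and 4. Here too the direction follows from the choice of genes on these same libraries. BGIOSGA026110 (chromosome 7, 23103871 to 23104575, plus strand) had 11.8, 24.5 and 20.2 CPM in aleurone, against 888, 1051 and 589 CPM in endosperm. The lowest endosperm library stood far above the highest aleurone library (log2 fold change -5.49 ± 0.60; edgeR quasi-likelihood test, Benjamini-Hochberg adjusted p = 0.0401 with 6 libraries and 0.255 with 12).

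**Figure D2:**
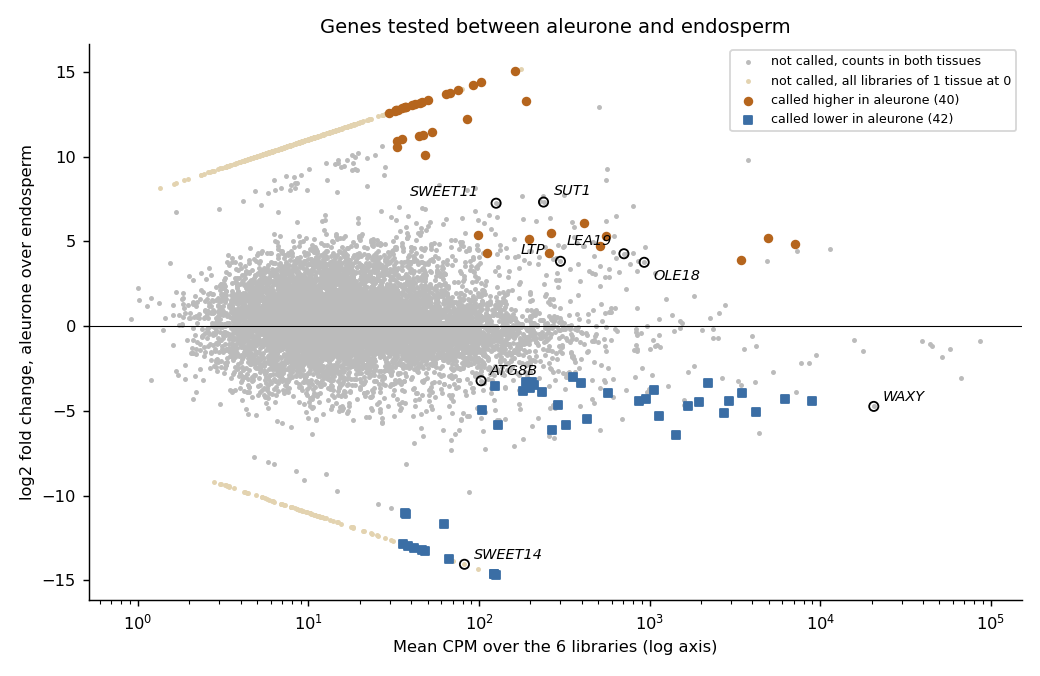
Mean level over the 6 libraries (x axis, log scale, CPM) against the log2 fold change of aleurone over endosperm (y axis) for the 10580 genes tested; filled circles and squares are genes called higher and lower in aleurone, and rings mark 8 named genes. Points on the outer diagonals have no count in 1 tissue, and their fold change depends on the prior count of the fit; the 82 called genes carry no symbol, while SUT1 and SWEET11 reach log2 fold changes above 7 without being called.

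A cluster of called genes on chromosome 7 was picked out after the values were seen, so it carries no test of its own. The window from 6342458 to 6820782, a span of 478 kb, held 25 genes of the table. Of these 12 were tested and 5 called lower in aleurone, against 0.397% of all genes tested. The window begins and ends at called genes, so the first and last of these calls lie in it by construction. These 5 were short genes of 441 to 501 bases with mean levels of 32.6 to 787 CPM in aleurone, against 2218 to 17020 CPM in endosperm. Their log2 fold changes were -6.43 to -4.28, and those of the other 7 tested genes of the window were -4.38 to -0.34. None of these was above 0, where 4617 of the 10580 genes tested were below 0. The first of the 5, BGIOSGA024613 (6342458 to 6342922, minus strand), had 42.4, 36.3 and 19.2 CPM in aleurone, against 3379, 1370 and 3671 CPM in endosperm. The 5 genes took 0.123%, 0.221% and 0.239% of the counts in aleurone 1, 2 and 3, against 2.97%, 2.36% and 3.31% in endosperm 2, 3 and 4. They carry no symbol, and reads of near-identical neighbouring copies could have been split between them by the counting. Over the whole of chromosome 7, 8 genes were called lower and 1 higher of 820 tested, against 0.397% and 0.378% of all genes tested.

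**Figure D3:**
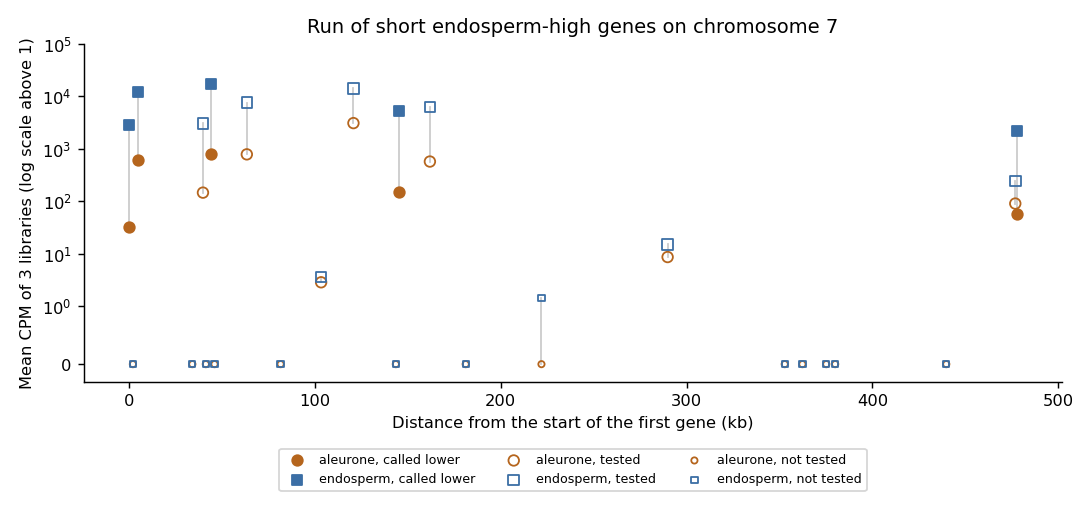
Mean level of each gene of the chromosome 7 window (y axis, CPM of 3 libraries, log scale above 1) against its distance from the start of the first gene (x axis, kb), circles for aleurone and squares for endosperm, filled where the gene was called. The 5 called genes have means of 32.6 to 787 CPM in aleurone and 2218 to 17020 CPM in endosperm.

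Genes with a symbol did not pass the adjusted threshold, and what follows gives their values in each library. Of the 412 such genes 199 were tested, 120 had no count in any of the 6 libraries and 93 were too low. At an unadjusted p below 0.05 there were 19 genes (9.55%) higher and 12 (6.03%) lower in aleurone, against 6.74% and 4.24% of all genes tested. Every aleurone library was above every endosperm library at 35 genes (17.6%) and below at 15 (7.54%), against 14.5% and 9.24% of all genes tested. Of the 199 tested, 124 had the same sign in the libraries of each sequencing lane taken alone. Lane 6 held aleurone 1, aleurone 2 and endosperm 2, and lane 5 the other 3. The median log2 fold change of the symbol-bearing genes, 0.30, was close to that of all genes tested, 0.26. With library totals alone as the scale the median of all genes was 0.93, above the 0.26 with TMM factors.

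Starch synthesis was represented by WAXY, a starch synthase bound to the granule and the maker of amylose (chromosome 6, 1931535 to 1935014). WAXY had 750, 1818 and 1903 CPM in aleurone 1, 2 and 3, against 48724, 15506 and 54977 CPM in endosperm 2, 3 and 4. Its lowest endosperm library stood well above its highest aleurone library. Mean levels were 1490 ± 643 CPM in aleurone and 39736 ± 21215 CPM in endosperm (SD, n = 3; log2 fold change -4.74 ± 0.84; edgeR quasi-likelihood test, Benjamini-Hochberg adjusted p = 0.0555). It missed the threshold here and passed it in 6 of the alternative fits, among them DESeq2, limma voom and the fit without endosperm 3. By raw count, with no correction for gene length, it ranked 94, 34 and 33 among all genes of aleurone 1, 2 and 3, against 8, 9 and 6 in endosperm 2, 3 and 4.

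Leading genes of oil storage, desiccation and lipid transfer had higher values in aleurone, without passing the adjusted threshold. OLE18, an oleosin that coats seed oil bodies, had 1295, 1863 and 2035 CPM in aleurone, against 265, 68.5 and 48.9 CPM in endosperm. All aleurone libraries were well above all endosperm libraries, of which endosperm 2 was the highest (log2 fold change 3.76 ± 0.77; edgeR quasi-likelihood test, Benjamini-Hochberg adjusted p = 0.0852). LEA19, a late embryogenesis abundant protein of drying seeds, had 2539, 235 and 1258 CPM in aleurone, against 97.7, 104 and 7.93 CPM in endosperm. The groups did not overlap, but aleurone 2 was far below the other aleurone libraries (log2 fold change 4.27 ± 1.18; edgeR quasi-likelihood test, Benjamini-Hochberg adjusted p = 0.197). LTP, a lipid transfer protein, had 692, 355 and 635 CPM in aleurone, against 58.3, 6.75 and 53.8 CPM in endosperm. Its groups were again apart (log2 fold change 3.82 ± 0.86; edgeR quasi-likelihood test, Benjamini-Hochberg adjusted p = 0.109).

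The dehydrin genes of the RAB16 family, which respond to abscisic acid and water loss, were less even. RAB16D had 58.3, 13.5 and 13.9 CPM in aleurone and no count in endosperm, a level at least 345-fold above the floor of 3 counts over the endosperm libraries. RAB16C had 260, 0.119 and 195 CPM in aleurone, against 18.1, 9.22 and 11.1 CPM in endosperm. Aleurone 2 held a single read of RAB16C, so that the groups overlapped (log2 fold change 3.57 ± 1.70). PXG, a peroxygenase of oil bodies, ran the other way, with 49.5, 9.31 and 23.7 CPM in aleurone, against 232, 26.6 and 151 CPM in endosperm. Endosperm 3 lay within the aleurone range for it (log2 fold change -2.31 ± 0.97). Of the 5 tested members of the list of oil body, late embryogenesis and dehydrin genes 0 were called, 3 were higher and 1 was lower at an unadjusted p below 0.05, against 6.74% and 4.24% of all genes tested, and the median log2 fold change was 3.76. Oleosin and late embryogenesis genes are also active in the embryo. The embryo markers summed to 0 to 31.6 in these aleurone libraries, against 524 to 607 in the embryo libraries. Of these markers OSH71 stood at 15.6 and 31.6 in aleurone 1 and 2, against 22.2 to 58.1 in embryo. The part of embryo RNA in the result was not tested.

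Sugar transport showed carriers on each side. SUT1, a sucrose-proton symporter of the plasma membrane, had 153, 716 and 556 CPM in aleurone, against 0, 1.30 and 7.50 CPM in endosperm. SWEET11, a sucrose efflux carrier, had 127, 311 and 312 CPM in aleurone, against 0, 0.130 and 4.66 CPM in endosperm. For both, aleurone 1 was the lowest aleurone library and endosperm 4 the highest endosperm library, and the groups were far apart. The log2 fold changes were 7.32 ± 1.75 for SUT1 and 7.25 ± 1.82 for SWEET11 (edgeR quasi-likelihood test, Benjamini-Hochberg adjusted p = 0.129 and 0.152). SWEET4, another carrier of this family, had 17.6, 22.8 and 2.43 CPM in aleurone and no count in endosperm, at least 173-fold above the endosperm floor.

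SWEET14, also a SWEET carrier, had no count in any aleurone library, against 188, 294 and 10.7 CPM in endosperm 2, 3 and 4. Its endosperm mean was at least 2257-fold above the aleurone floor, although endosperm 4 held a small part of the level of the others (edgeR quasi-likelihood test, Benjamini-Hochberg adjusted p = 0.0555). SWEET15 overlapped, at 2.69, 23.0 and 6.67 CPM in aleurone, against 32.1, 29.6 and 0 CPM in endosperm. So did SUT4, another sucrose transporter, at 23.8, 0 and 14.5 CPM in aleurone, against 0, 0 and 19.1 CPM in endosperm. The cell wall invertase gene CIN2, which splits sucrose outside the cell, had 0, 90.5 and 19.1 CPM in aleurone and no count in endosperm, and it was too uneven to pass the filter. Of the 16 genes of sugar transport and cleavage 6 were tested, 8 had no count in the 6 libraries and 2 were low. None of the 6 was called, with 3 higher and 1 lower at an unadjusted p below 0.05, against 6.74% and 4.24% of all genes tested.

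**Figure D4:**
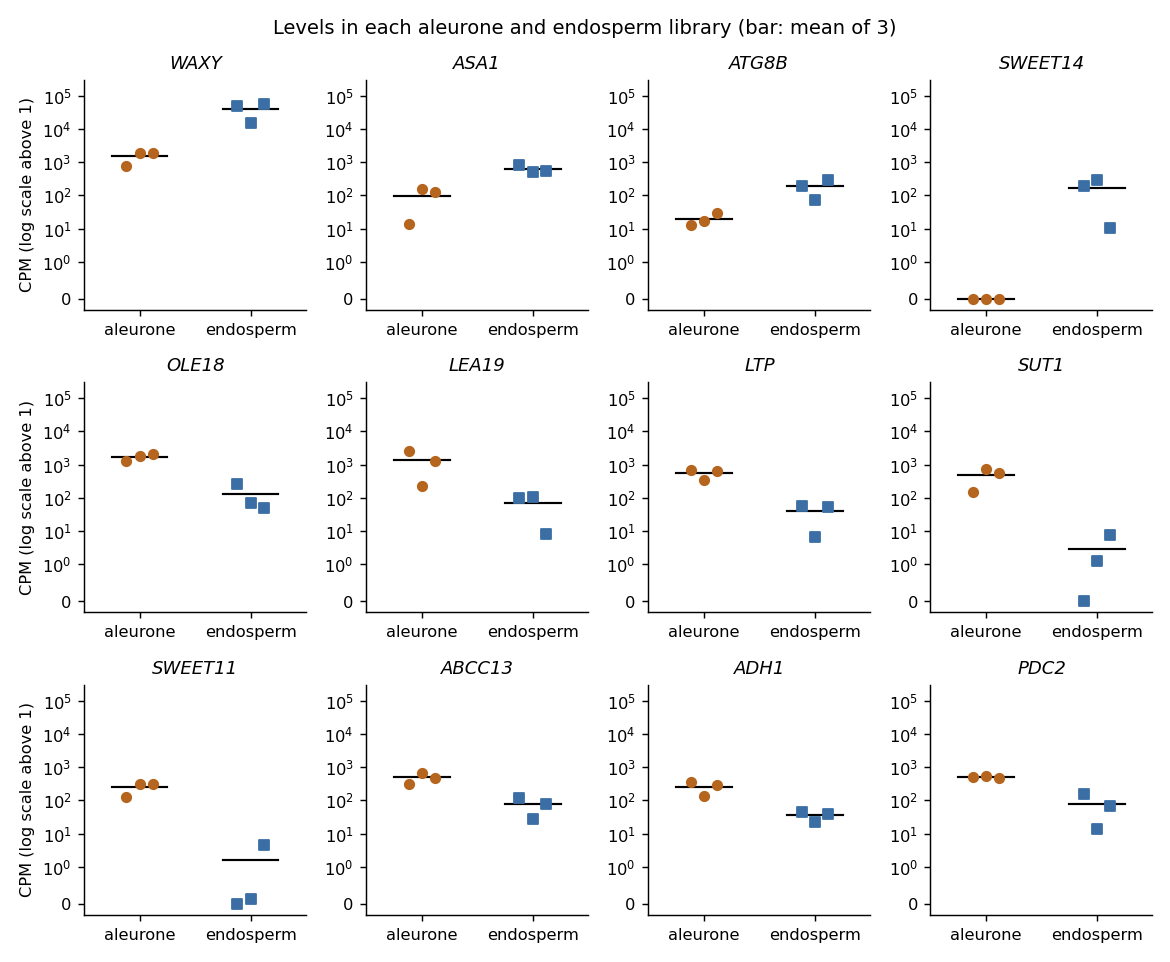
Level in each library (y axis, CPM, log scale above 1) of 12 named genes, 1 panel per gene and 1 point per library, aleurone left of endosperm, with a bar at the mean of 3. WAXY, ASA1, ATG8B and SWEET14 lie lower in aleurone and the other 8 genes higher, with no overlap in any panel. The genes were picked in part by low p in these data, which favours panels without overlap. Of the 199 symbol-bearing genes tested, 35 (17.6%) were higher and 15 (7.54%) lower in aleurone without overlap.

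Genes of phytate, the phosphate store of aleurone cells, fell on both sides. ABCC13, the transporter needed for phytate accumulation in rice seed, had 314, 663 and 484 CPM in aleurone, against 118, 27.7 and 80.1 CPM in endosperm. Each aleurone library was above each endosperm library (log2 fold change 2.70 ± 0.67; edgeR quasi-likelihood test, Benjamini-Hochberg adjusted p = 0.143). Of the kinases that phosphorylate inositol phosphates, ITPK6 had 113, 111 and 115 CPM in aleurone, against 19.6, 12.2 and 0 CPM in endosperm. ITPK3, of the same family, had 46.4, 5.37 and 16.8 CPM in aleurone, against 169, 153 and 210 CPM in endosperm. Neither overlapped, in opposite directions, with log2 fold changes of 3.41 ± 1.63 for ITPK6 and -2.95 ± 0.85 for ITPK3 (edgeR quasi-likelihood test, Benjamini-Hochberg adjusted p = 0.567 and 0.214). IPK1, the kinase of the last step of phytate synthesis, had 154, 219 and 206 CPM in aleurone, against 158, 261 and 202 CPM in endosperm. Its 95% interval of the log2 fold change, -1.18 to 0.98, still allows a change in either direction. Of the 12 tested genes of inositol phosphate and phosphate handling 8 had a log2 fold change above 0 and 4 below, with a median of 1.57, and 4 of the 12 were higher and 3 lower without overlap, against 14.5% and 9.24% of all genes tested.

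Of the 3 tested fermentation genes 2 had an unadjusted p below 0.05, both with higher values in aleurone, where 6.74% of all genes tested were higher at that p. ADH1, alcohol dehydrogenase, had 352, 132 and 293 CPM in aleurone, against 43.3, 23.0 and 39.2 CPM in endosperm. PDC2, pyruvate decarboxylase, had 492, 552 and 481 CPM in aleurone, against 151, 14.0 and 65.4 CPM in endosperm. Neither gene overlapped, and endosperm 3 was the lowest library for both. Log2 fold changes were 2.88 ± 0.61 for ADH1 and 2.73 ± 0.82 for PDC2 (edgeR quasi-likelihood test, Benjamini-Hochberg adjusted p = 0.0924 and 0.227). The glycolytic gene GAPC had 309, 566 and 741 CPM in aleurone, against 275, 435 and 271 CPM in endosperm, and its groups overlapped.

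Metabolic genes outside these groups also stood apart without passing. BADH2, the betaine aldehyde dehydrogenase whose loss gives fragrant rice, had 139, 183 and 174 CPM in aleurone, against 34.2, 34.3 and 10.6 CPM in endosperm (log2 fold change 2.65 ± 0.67; edgeR quasi-likelihood test, Benjamini-Hochberg adjusted p = 0.153). SSI2, a stearoyl-ACP desaturase that makes oleic acid, had 271, 298 and 385 CPM in aleurone, against 129, 70.5 and 38.9 CPM in endosperm. PUT1, a polyamine uptake transporter, had 101, 262 and 157 CPM in aleurone, against 21.4, 0.130 and 9.68 CPM in endosperm. None of these 3 overlapped, where 14.5% of all genes tested were higher in aleurone without overlap. ARD2, of the methionine salvage cycle, had 51.2, 131 and 45.4 CPM in aleurone, against 2.49, 0 and 0 CPM in endosperm. CATB, a catalase, had 195, 152 and 169 CPM in aleurone, against 37.2, 33.4 and 113 CPM in endosperm, and CHI, chalcone isomerase of flavonoid synthesis, had 87.3, 46.2 and 135 CPM in aleurone, against 0, 21.2 and 0 CPM in endosperm. Both were apart, and CHI passed in the fit without endosperm 3. ASA1, the anthranilate synthase subunit that starts tryptophan synthesis, was on the other side, at 13.8, 154 and 127 CPM in aleurone, against 840, 508 and 550 CPM in endosperm. Its log2 fold change was -2.69 ± 0.85 (edgeR quasi-likelihood test, Benjamini-Hochberg adjusted p = 0.251). The list of amino acid, polyamine and betaine genes had 6 tested members. Without overlap 3 of them were higher and 1 lower in aleurone, against 14.5% and 9.24% of all genes tested.

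Hormone genes gave values on both sides. SAPK2, a kinase activated by abscisic acid, had 33.3, 14.9 and 38.6 CPM in aleurone and no count in endosperm, at least 350-fold above the endosperm floor. AOC, allene oxide cyclase of jasmonate synthesis, had 15.9, 10.1 and 9.32 CPM in aleurone and no count in endosperm, at least 143-fold above that floor. RR29, a response regulator, was also counted in all aleurone libraries, at 0.305, 77.2 and 16.4 CPM, and in none of endosperm, but the spread within aleurone was as wide as its level. ARF16, an auxin response factor, had 21.5, 11.1 and 10.2 CPM in aleurone, against 358, 19.0 and 209 CPM in endosperm, where endosperm 3 fell inside the aleurone range (log2 fold change -3.77 ± 1.05). ERS1, an ethylene receptor, had 84.4, 219 and 145 CPM in aleurone, against 228, 182 and 294 CPM in endosperm, and overlapped. Of 13 tested auxin and jasmonate genes 1 was higher and 1 lower at an unadjusted p below 0.05, against 6.74% and 4.24% of all genes tested. Of 7 tested cytokinin, ethylene and brassinosteroid genes 0 were at that p in either direction, against 11.0% of all genes tested. Their median log2 fold change of -0.61 turned to 0.33 with library totals as the scale.

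Homeobox genes were mostly silent or seen in a few libraries. Of 37 homeobox and zinc finger homeodomain genes 17 had no count in the 6 libraries, 9 were low and 11 were tested. The log2 fold change was above 0 at 7 of the 11 and below 0 at 4, with a median of 2.94. Without overlap 4 were higher and 2 lower in aleurone, against 14.5% and 9.24% of all genes tested. HOX20 had 36.2, 33.5 and 17.6 CPM in aleurone and no count in endosperm, at least 352-fold above the endosperm floor. HOX7 had 15.8, 24.6 and 20.1 CPM in aleurone, against 0, 0 and 0.0605 CPM in endosperm, where the value is a single read. HOX16 had 76.7, 53.0 and 38.6 CPM in aleurone, against 9.87, 0 and 2.36 CPM in endosperm. These 3 encode homeodomain-leucine zipper factors, and none overlapped. The other HOX genes tested, HOX4, HOX5, HOX32 and HOX33, did overlap. ZHD1, a zinc finger homeodomain factor, had 28.7, 40.5 and 43.3 CPM in aleurone, against 9.37, 0 and 0 CPM in endosperm.

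WOX5 and MIF1, also of the homeobox and zinc finger homeodomain list, and SPL15 had higher mean values in endosperm. SPL15 is of the list of other transcription factors, whose 4 tested genes had log2 fold changes above 0 at 3 and below 0 at 1. WOX5 had 0, 0 and 8.19 CPM in aleurone, against 41.0, 66.5 and 50.1 CPM in endosperm. MIF1, a mini zinc finger protein, had 0, 0.119 and 0 CPM in aleurone, against 18.4, 5.72 and 26.4 CPM in endosperm. Both were apart, and neither passed the adjusted threshold (edgeR quasi-likelihood test, Benjamini-Hochberg adjusted p = 0.715 for WOX5 and 0.284 for MIF1). SPL15, a squamosa promoter-binding-like factor, had 102, 75.9 and 67.4 CPM in aleurone, against 295, 101 and 317 CPM in endosperm, and endosperm 3 lay just under aleurone 1.

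The 5 tested cell wall synthases all had log2 fold changes below 0, where 4617 of the 10580 genes tested did. Their median was -1.66. None of the 5 was called, against 0.397% of all genes tested called lower. At an unadjusted p below 0.05, 1 of the 5 was lower, against 4.24% of all genes tested. CESA2, a cellulose synthase catalytic subunit, had 64.8, 130 and 48.9 CPM in aleurone, against 330, 195 and 246 CPM in endosperm. CESA1, of the same family, had 169, 89.1 and 141 CPM in aleurone, against 271, 197 and 273 CPM in endosperm. Both were without overlap, by a small margin (log2 fold change -1.66 ± 0.57 for CESA2 and -0.90 ± 0.49 for CESA1). CESA5 had 66.7, 0 and 52.3 CPM in aleurone, against 254, 59.6 and 199 CPM in endosperm, and overlapped. CESA4, known for secondary walls, had 12.6, 0 and 0 CPM in aleurone, against 276, 0 and 219 CPM in endosperm, and was missing from endosperm 3. With library totals as the scale the median of the 5 was -0.88.

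Autophagy genes of the ATG8 family, whose products attach to the forming autophagosome, differed among themselves. ATG8B had 13.0, 16.7 and 29.9 CPM in aleurone, against 191, 74.2 and 292 CPM in endosperm, without overlap (log2 fold change -3.23 ± 0.74; edgeR quasi-likelihood test, Benjamini-Hochberg adjusted p = 0.118). ATG8C had 48.8, 26.7 and 21.7 CPM in aleurone, against 83.3, 39.4 and 109 CPM in endosperm, and overlapped. ATG8A had 43.8, 66.0 and 47.4 CPM in aleurone, against 41.0, 61.3 and 46.6 CPM in endosperm, and the ranges nearly coincided. Its 95% interval of the log2 fold change was -1.47 to 1.63.

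Genes of general cell function gave no fixed scale for these values, since ACT1 stood apart while others overlapped. ACT1, an actin, had 45.4, 100 and 120 CPM in aleurone, against 207, 148 and 340 CPM in endosperm, and did not overlap. HSP81-1, a chaperone of the HSP90 family, had 188, 442 and 589 CPM in aleurone, against 400, 682 and 608 CPM in endosperm. TRXH, a thioredoxin, had 68.0, 156 and 163 CPM in aleurone, against 115, 101 and 97.3 CPM in endosperm. HSP81-1 and TRXH overlapped, with 95% intervals of -1.75 to 0.80 and -0.97 to 1.58 on the log2 scale. MT2C, a metallothionein, had 34.6, 58.5 and 59.7 CPM in aleurone, against 375, 82.3 and 43.3 CPM in endosperm, so its high endosperm mean came from endosperm 2. OSK3, a SnRK1-type kinase, had 155, 235 and 514 CPM in aleurone, against 283, 350 and 335 CPM in endosperm, and overlapped.

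Ribosomal protein and histone H2B genes gave no member at an unadjusted p below 0.05, against 11.0% of all genes tested. Single genes of chromatin and DNA repair stood apart. RPL5A and RPL11_1, ribosomal proteins, averaged 93.0 ± 49.7 and 61.5 ± 50.9 CPM in aleurone, against 155 ± 55.1 and 121 ± 30.3 CPM in endosperm (SD, n = 3). For the 6 tested ribosomal protein genes the median log2 fold change of -0.47 turned to 0.21 with library totals as the scale. The 8 tested histone H2B genes had a median of -0.04, which turned to 0.18. BRE1A, a ubiquitin ligase of histone H2B, had 59.9, 51.9 and 59.2 CPM in aleurone, against 144, 101 and 208 CPM in endosperm, with no overlap (log2 fold change -1.40 ± 0.55; edgeR quasi-likelihood test, Benjamini-Hochberg adjusted p = 0.343). The 9 tested genes of histone modification and protein quality had a median of 0.98, and 3 were higher and 1 was lower without overlap, against 14.5% and 9.24% of all genes tested. NBS1, a DNA repair protein, had 29.0, 26.7 and 22.9 CPM in aleurone and no count in endosperm, at least 317-fold above the endosperm floor.

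**Figure D5:**
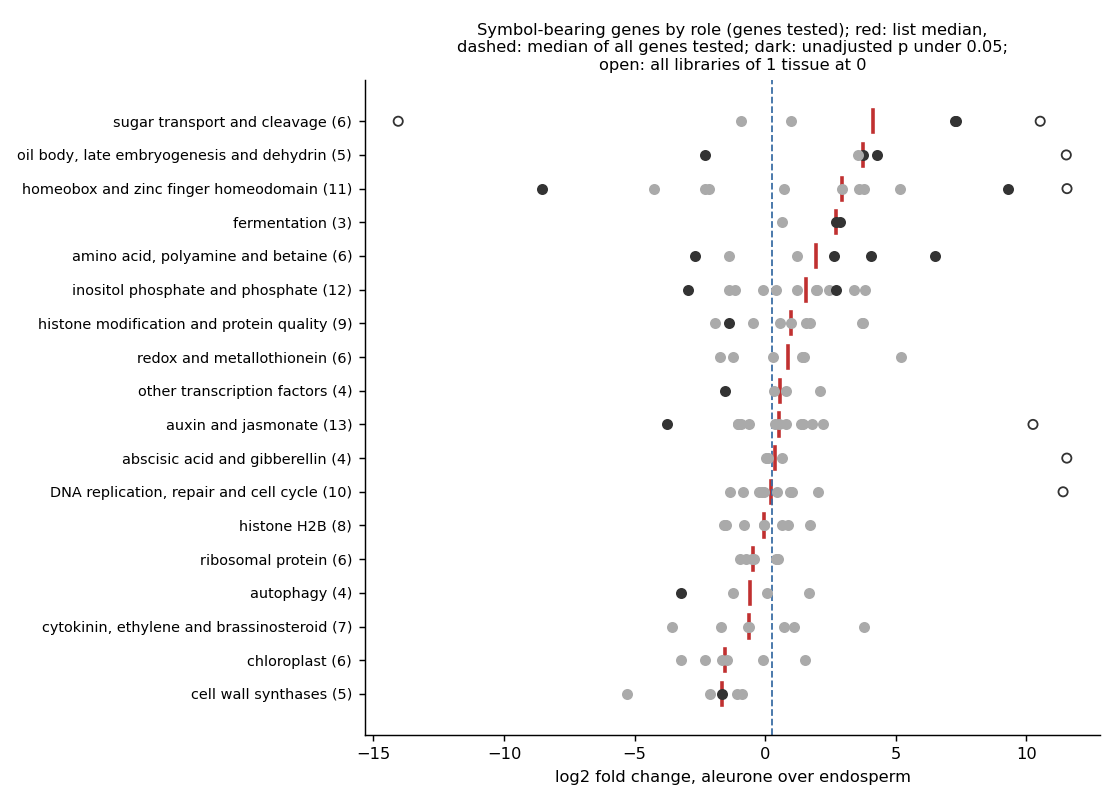
Log2 fold change of aleurone over endosperm (x axis) of the tested members of 18 gene lists (rows, number tested in brackets), 1 point per gene, dark where the unadjusted p was below 0.05 and open where 1 tissue had no count, with the list median in red and the median of all genes tested, 0.26, dashed. Cell wall synthases lie below 0 at all 5 tested members, where 4617 of the 10580 genes tested do. The sugar transport, oil body and fermentation lists have medians of 4.13, 3.76 and 2.73.

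The tissues were also compared by presence alone, with no test. A count in all 3 aleurone libraries and none in endosperm was found for 453 genes, 366 of them at a mean of 10 CPM or more, and the reverse for 102 genes, 79 of them at 10 CPM or more. Symbols were carried by 7 of the 366 (AOC, HOX20, NBS1, RAB16D, RR29, SAPK2 and SWEET4) and by 1 of the 79 (SWEET14). The highest mean was 430 CPM among the aleurone genes and 253 CPM among the endosperm genes. The floor of 3 counts over a tissue, 0.0727 CPM in aleurone and 0.0827 CPM in endosperm, covers counting error only.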

How the data were processed

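The deposited table gave whole-number total counts per gene, not normalized, per the file headers. Its 36 columns of normalized values were not used. Not given in the sources used here are aligner, build and strand, so reads of overlapping and antisense genes cannot be told apart. Columns were assigned by header letters (Al for aleurone, Se for endosperm, the name left over).

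The 6 libraries entered an edgeR 4.0.16 quasi-likelihood fit (R 4.3.3) with filterByExpr (minimum count 10), TMM factors and no term besides tissue. The prior degrees of freedom were 4.02. Calls needed a Benjamini-Hochberg adjusted p under 0.05 together with a change of at least 2-fold. Standard errors were obtained by dividing the log2 fold change, without its sign, by the root of its F statistic. Alternatives used DESeq2 1.42.0 and limma 3.58.1. The code was tested on simulated counts with a far smaller dispersion than the 2.71 of these data. That test therefore does not show how the calls behave at the spread seen here. Floors are 3 counts over a tissue's 3 libraries and cover counting error only, since PCR reads without molecular identifiers are not independent molecules. P-values measure the spread between libraries, which the sources used here do not tie to separate plants.

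Named are symbol-bearing genes with the 12 lowest p in each direction, the 10 with most reads in each tissue, those counted in 1 tissue alone, the 3 most abundant of each list, and of unnamed genes the 2 with the lowest p called in each direction. Some were passed over, and ARD2, HOX7, CESA4, CIN2, SUT4, SWEET15 and ITPK6 lie outside this rule and were chosen after their values were seen. Descriptions in the table attach by symbol and point to other chromosomes for GT2, ZIP4 and HDR1, which are not described. The comparison, the lists and the choice of 6 libraries were made with earlier results of these data known.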

Additional observations from a re-analysis of the deposited data

How the results depend on the processing

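The number of genes called, 82, was 861 with DESeq2, 629 with no filter on low counts, 366 with limma voom, 149 with library totals alone (63.8% of them higher in aleurone, against 48.8% in the fit reported), 7 with all 12 libraries and 0 with lane as a covariate. It was 121 with DESeq2's size factors. Leaving out 1 library gave 0 to 127 calls. Without aleurone 2 and endosperm 3, an alternative chosen after seeing the data, it was 0, with 3055 of 12717 genes at an unadjusted p below 0.05 in edgeR. With the header number as a replicate block it was 40, of which 16 were among the 82, and SUT1, SWEET11 and SWEET14 passed. Aleurone 1 and endosperm 4 have no partner in that fit, so its tissue contrast rests on the 2 shared header numbers alone. The tissues share 2 header numbers, and the deviations of same-numbered libraries correlated at -0.05 and -0.02, so the numbers are not taken to pair the libraries; each such pair also shares a sequencing lane.

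Over 54 named genes with a symbol and 15 alternatives, 716 of 810 log2 fold changes kept their sign and their side of the threshold, 78 moved past it and 16, at 7 genes, changed sign. With library totals, ERS1 was at 0.060, HSP81-1 at 0.012, IPK1 at 0.42 and OSK3 at 0.37. With lane as a covariate IPK1 was at 0.034 and OSK3 at 0.023. With the replicate block IPK1 was at 0.064, OSK3 at 0.14 and RAB16C at -0.92, against 3.57 without the block. SWEET15 was at 1.22 with voom, and OSK3 at 0.10 without aleurone 2 and endosperm 3. Leaving out 1 library gave -0.057 to 0.28 for ATG8A, -0.28 to 0.13 for IPK1 and -0.59 to 0.32 for OSK3. The cause of these changes was not tested. With counts thinned to the smallest total, aleurone 1 and 3 held 13584 and 11495 genes with a count, against 8158 in aleurone 2. Endosperm 2 and 4 held 9852 and 10305, against 6746 in endosperm 3. The gaps of aleurone 2 and endosperm 3 were not counted again after thinning, and the part of depth in them was not tested.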
